A study of Mus musculus with 9 samples.

Results

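Collagens are the triple-helical proteins of the extracellular matrix. Their genes were taken as all symbols made of Col, a number, a and a number that had a summed raw count of at least 100 over the 9 libraries. The pattern matched 44 of 40202 genes in the deposited table, and 43 of them met the minimum. Col2a1, the cartilage collagen, lay just inside with 124 counts, and Col6a4, a chain of beaded filaments, lay just outside with 65 counts. The 43 genes comprised 11 fibrillar collagens, 8 basement membrane collagens and 24 others.

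RNA of the retinal pigment epithelium (RPE), the pigmented cell layer behind the photoreceptors, was sequenced in bulk from wild-type mice. Treated libraries came from mice of 24 months given the small molecule vutiglabridin for 6 months (n = 3). Old control libraries came from mice of 24 months (n = 3), and young control libraries from mice of 9 months (n = 3). Treated and young control libraries thus differ in age as well as treatment, and their comparison cannot tell age and treatment apart. The labels give neither dose, strain, sex nor batch, and they do not say that each library is a separate animal, so p-values speak of the spread among these libraries, which may be technical in part.

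The RPE rests on Bruch's membrane, a layered sheet between the epithelium and the choroidal capillaries. Basement membranes at its faces hold type IV networks of collagen chains, while fibrillar collagens fill its inner layers, and the short-chain type VIII forms hexagonal networks in such sheets. Collagen chains are hydroxylated in the endoplasmic reticulum, assembled into trimers, trimmed outside the cell and crosslinked by lysyl oxidases. This matrix is known to thicken and stiffen with age.

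Total counts per library ranged from 44196290 to 56797891. The RPE retinoid isomerase Rpe65 had 2761, 1999 and 2104 CPM (counts scaled to the library size) in treated libraries, 2328, 2431 and 2075 CPM in old control libraries and 3004, 2829 and 3113 CPM in young control libraries. The summed level of 7 RPE markers was 8893 to 13825 CPM in treated, 11647 to 13935 CPM in old control and 15467 to 17638 CPM in young control libraries. Markers of other tissue were present as well: all 9 fibroblast, all 9 endothelial and all 8 pericyte and smooth muscle markers averaged at least 1 CPM, so the collagen RNA is that of a dissected layer and not of RPE cells alone. Fibroblast markers other than collagens summed to 2212 to 2971 CPM in treated, 2824 to 3041 CPM in old control and 3102 to 3737 CPM in young control libraries. In such bulk samples fewer cells of a type and less RNA per cell cannot be told apart. Treated library 2 and young control library 1 stood apart from the others in a multidimensional scaling plot. Treated library 2 also held the most haemoglobin RNA, at 4986 CPM over 4 globin genes against 39.9 to 582 CPM in the other libraries, and the most RNA of stratified epithelium, with Krt5 at 62.8 CPM.

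All 43 collagen genes passed the filter on low counts and were tested within 1 fit of 25273 genes. In treated against old control RPE, 3 collagens rose, which were Col13a1, Col4a1 and Col4a2, and Col26a1 fell, so that 4 of 43 (9.3%) were called where 4.34% of all genes were. By direction, the background was 2.37% of genes higher and 1.97% lower. In treated against young control RPE, 4 collagens rose (Col4a1, Col4a2, Col10a1 and Col14a1) and 3 fell (Col26a1, Col15a1 and Col8a2), which is 16.3% of collagens and near the background of 16.7%. There the background by direction was 9.01% higher and 7.69% lower. In old control against young control RPE, Col26a1 fell and no collagen rose, beside a background of 1.68% called, 1.48% higher and 0.202% lower. The 0 rises there come from edgeR's quasi-likelihood test. At an unadjusted p under 0.05 stood 6 of the 43 collagens in either direction, beside 2945 of 25273 genes. Limma-voom with quality weights called 2 collagens higher and DESeq2 called 0. The comparisons share libraries, the old controls or the young controls or the treated ones, so their values are given side by side and are not independent.

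The median log2 fold change of the 43 collagens was 0.02 in treated minus old control, 0.01 in treated minus young control and -0.05 in old minus young control, beside -0.01 for all genes tested in each comparison. The groups did not overlap for 14 collagens (32.6%) in treated against old control RPE, where 32.2% of all genes did not overlap. The same held for 13 collagens (30.2%) in treated against young control RPE, with a background of 33.2%, and for 6 collagens (14%) in old control against young control RPE, with a background of 25.3%. No shift common to the family was seen in these medians, and the calls were of single members. Adjusted p-values of the uncalled collagens ran from 0.0657 to 0.959 in treated against old control, from 0.0509 to 0.996 in treated against young control and from 0.199 to 0.998 in old against young control RPE.

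**Figure D1:**
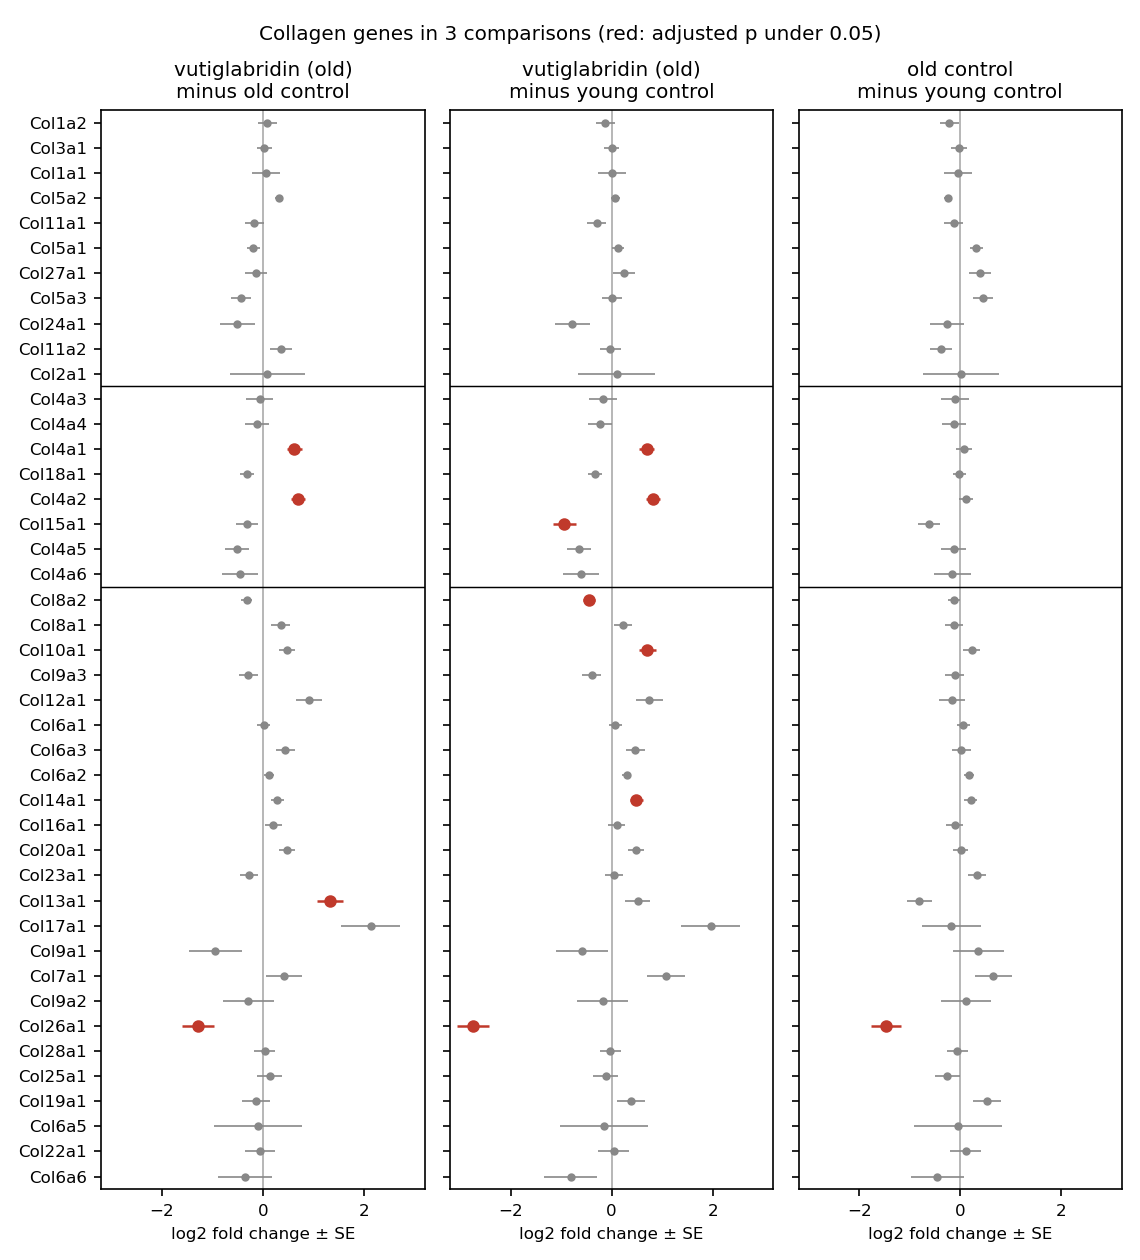
Log2 fold change ± SE of the 43 collagen genes (rows, grouped by lines into fibrillar, basement membrane and other collagens and ordered within each by mean FPKM) in 3 comparisons (panels), from edgeR's quasi-likelihood fit of 9 libraries. Red points passed an adjusted p of 0.05: 4 in the left panel, 7 in the middle and 1 in the right, with none among the 11 fibrillar collagens.

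Calls at this size of sample depended on single libraries. Without old control library 1, 2 or 3, or without young control library 2, no collagen was called in treated against old control RPE, and without treated library 2 only Col4a2 remained. Without treated library 1 none of the collagens called in the full fit remained there, while Col12a1 and Col17a1 were called higher and Col8a2 lower. Without treated library 3, 6 collagens rose and 2 fell there, while the genes called over the whole table numbered 4092 without it against 1098 with it. Without old control library 1, 2 or 3, the genes called there over the whole table numbered 35, 25 and 63. In treated against young control RPE, 1 collagen rose and 2 fell without young control library 1, while without treated library 3 the counts were 8 and 4. Over the whole table, 1806 genes were called there without young control library 1 and 6086 without treated library 3, against 4222 with all libraries. In old against young control RPE no collagen was called without old control library 1 or 2 or young control library 2 or 3. Without both libraries that stand apart, 1 collagen rose and 0 fell in treated against old control RPE, 2 rose and 2 fell against young control RPE, and 2 fell in old against young control RPE.

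Levels were set side by side per length, as deposited FPKM over the whole gene span, introns included. By that measure Col8a2, a chain of type VIII collagen, came first at 29.7 ± 3.46 FPKM in treated, 38.9 ± 2.51 FPKM in old control and 41.2 ± 0.978 FPKM in young control libraries (mean ± SD, n = 3). Col8a1, the other type VIII chain, came second at 14.3 ± 3.89 FPKM in treated, 11.7 ± 0.774 FPKM in old control and 12.5 ± 0.962 FPKM in young control libraries. Both levels of type VIII stood above all other collagens. Col1a2, a chain of the main fibrillar collagen type I, followed at a mean of 8.02 FPKM over the 9 libraries, and then came Col10a1 at 6.43, Col9a3 at 5.96, Col12a1 at 5.66, Col3a1 at 4.86 and Col1a1 at 3.77 FPKM. The last in order was the beaded-filament chain Col6a6 at 0.0057 FPKM. Since the span counts introns, the order depends on intron length as well as on RNA.

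Summed over the 43 genes, collagens made up 0.600% to 0.696% of the counts. The sums were 7366, 6729 and 6333 CPM in treated, 6094, 5906 and 5863 CPM in old control and 6261, 6009 and 6766 CPM in young control libraries. Each treated sum lay above each old control sum, by 855 CPM in the mean, with an exact two-sided permutation p of 0.1, the smallest that 3 against 3 allow. Against young control the mean difference was 464 CPM for treated libraries (exact permutation p = 0.3) and -391 CPM for old control libraries (exact permutation p = 0.2). The treated minus young control value was 185 CPM without treated library 1, 295 CPM without young control library 2 and 702 CPM without treated library 3, and the old minus young control value was -181 CPM without young control library 3. The 24 other collagens summed to 5143, 4674 and 4130 CPM in treated libraries, above 3956, 3907 and 3743 CPM in old control libraries (exact permutation p = 0.1). Fibrillar sums averaged 918 ± 102 CPM in treated, 903 ± 59.3 CPM in old control and 963 ± 96.0 CPM in young control libraries. Basement membrane sums averaged 1243 ± 190 CPM in treated, 1182 ± 27.4 CPM in old control and 1246 ± 89.5 CPM in young control libraries (SD, n = 3 each). In neither class did the groups separate, with exact permutation p from 0.4 to 1. Of the treated gap, the sources differed by library: the hexagonal-network collagens were highest in treated library 1, at 3638 CPM, and the fibril-associated collagens in treated library 2, at 1727 CPM.

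**Figure D2:**
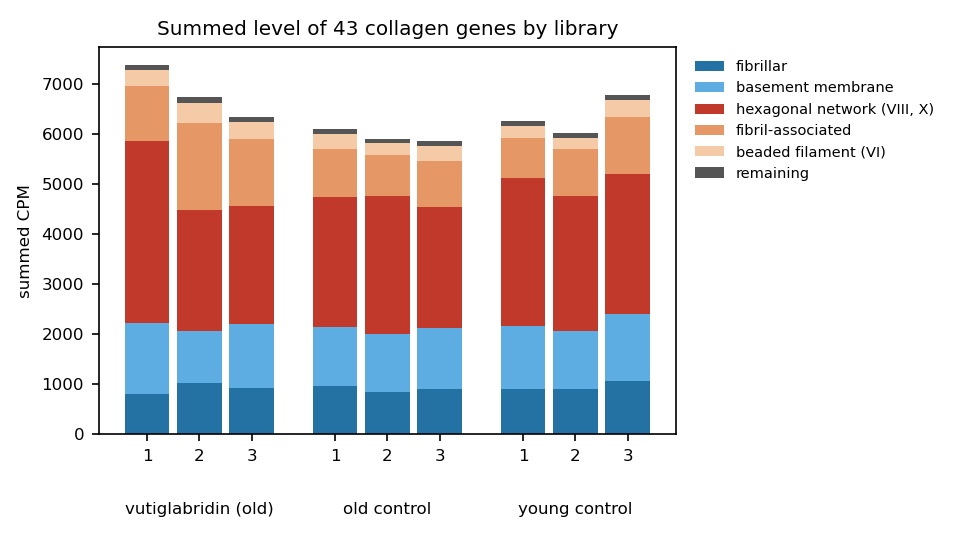
Stacked bars of the summed CPM of the 43 collagen genes in each of 9 libraries, split by structural class. The 3 treated bars stand between 6333 and 7366 CPM and the 3 old control bars between 5863 and 6094 CPM, with type VIII and X collagens the largest block in every bar.

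Among the basement membrane collagens, Col4a1 and Col4a2 were called higher in treated libraries against each control group, of which only the old controls match them in age. Type IV collagen of most basement membranes is a trimer of chains encoded by Col4a1 and Col4a2, which lie head to head on chromosome 8. In the deposited coordinates Col4a1 runs on the minus strand from 11248423 to 11362889 and Col4a2 on the plus strand from 11362805 to 11499287, so that their first 85 bases overlap. Their promoter windows run from 250 bases before to 50 after the start site. They are shown because the region where such genes start is known as a promoter that works in both directions. Here 0 bases lie between the deposited start sites, so the windows are not a stretch between the genes. The window of Col13a1, the called collagen of largest rise in treated against old control RPE, is given for comparison. All these windows come from RefSeq on GRCm38.p6, a build whose coordinates differ from the deposited ones, at chr8:11312777-11313076 (minus strand), chr8:11312555-11312854 (plus strand) and chr10:61979059-61979358 (minus strand). Capitals mark matches on either strand of the CCAAT box CCAAT, the GC box GGGCGG and the TATA motif TATAAA.
Col4a1: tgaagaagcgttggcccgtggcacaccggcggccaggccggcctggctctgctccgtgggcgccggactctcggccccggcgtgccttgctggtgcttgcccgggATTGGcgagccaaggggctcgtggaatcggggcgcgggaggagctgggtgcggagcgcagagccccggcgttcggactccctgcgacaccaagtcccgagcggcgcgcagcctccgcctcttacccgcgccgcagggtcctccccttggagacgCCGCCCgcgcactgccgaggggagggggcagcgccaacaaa
Col4a2: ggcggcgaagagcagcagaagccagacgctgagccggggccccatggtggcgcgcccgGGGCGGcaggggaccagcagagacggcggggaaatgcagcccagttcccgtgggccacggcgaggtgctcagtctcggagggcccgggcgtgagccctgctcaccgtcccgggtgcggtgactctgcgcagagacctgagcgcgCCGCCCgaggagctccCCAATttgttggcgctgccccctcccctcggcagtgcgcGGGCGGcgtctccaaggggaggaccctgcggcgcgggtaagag
Col13a1: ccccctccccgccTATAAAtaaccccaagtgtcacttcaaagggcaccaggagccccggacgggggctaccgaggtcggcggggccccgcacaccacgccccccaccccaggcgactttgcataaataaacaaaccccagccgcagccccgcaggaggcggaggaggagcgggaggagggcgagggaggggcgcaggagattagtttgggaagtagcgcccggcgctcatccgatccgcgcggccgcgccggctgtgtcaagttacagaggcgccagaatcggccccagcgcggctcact
The windows of Col4a1 and Col4a2 share 78 bases within a joint span of 522 bases. Each holds 1 CCAAT match, the Col4a1 window 1 GC box and the Col4a2 window 3. The GC box of the Col4a1 window lies in the shared bases and is also the last of those in the Col4a2 window. Neither window holds TATAAA, whereas the Col13a1 window holds TATAAA and neither of the other motifs. G and C made up 74%, 73.7% and 68% of the windows of Col4a1, Col4a2 and Col13a1, beside a median of 52.7% over 32851 promoters. Promoter windows were found for 34 of the 43 collagens, 37 windows in all, and none was at hand for Col26a1. A GC box match stood in 22 of the 37 windows (59.5%) against 35.7% of all promoters, a CCAAT match in 12 (32.4%) against 37.4%, TATAAA in 5 (13.5%) against 13.6%, and the AP-1 motif TGANTCA in 1 (2.70%) against 7.81%. These shares describe letters in these windows only.

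Col4a1 had 230, 303 and 185 CPM in treated libraries, against 152, 148 and 167 CPM in old control and 138, 152 and 155 CPM in young control libraries. All 3 treated libraries lay above the 6 controls, and library 2 was the highest. Col4a1 rose by 0.62 ± 0.15 on the log2 scale (± SE) in treated against old control RPE (edgeR quasi-likelihood, Benjamini-Hochberg adjusted p = 0.0485) and by 0.70 ± 0.15 against young control RPE (adjusted p = 0.0161). Old control minus young control was 0.07 ± 0.15 (adjusted p = 0.927). Col4a2 had 198, 236 and 156 CPM in treated libraries, against 120, 114 and 131 CPM in old control and 103, 111 and 121 CPM in young control libraries. Again each treated library exceeded all controls. Col4a2 rose by 0.69 ± 0.14 in treated against old control RPE (adjusted p = 0.0300) and by 0.81 ± 0.14 against young control RPE (adjusted p = 0.00642), and old minus young control was 0.12 ± 0.14 (adjusted p = 0.832). The ratio of Col4a1 to Col4a2, per length, was 1.39, 1.53 and 1.42 in treated, 1.51, 1.55 and 1.52 in old control and 1.59, 1.62 and 1.52 in young control libraries, with overlap between treated and either control group. The call of Col4a2 against young control RPE held in all 9 fits that left out a library and all 10 other alternatives. Against old control RPE it was lost without treated library 1 (adjusted p = 0.0559), old control library 1 (0.135), 2 (0.150) or 3 (0.0968) and young control library 2 (0.0575). The Col4a1 call against old control RPE held only without treated library 3; adjusted p was 0.0766 and 0.0788 without treated libraries 1 and 2, 0.179, 0.192 and 0.129 without old control libraries 1, 2 and 3, and 0.0593, 0.0816 and 0.0711 without young control libraries 1, 2 and 3. Its log2 fold change was 0.42 without treated library 2. Against young control RPE the Col4a1 call was lost without young control library 1 (adjusted p = 0.0632) and without both libraries that stand apart (adjusted p = 0.0548). It was also lost with only the 2 groups compared.

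Endothelial cells make these chains in vessel walls. The 9 endothelial markers summed to 841 to 930 CPM in treated, 806 to 832 CPM in old control and 912 to 1014 CPM in young control libraries, and the 8 pericyte and smooth muscle markers to 940 to 1222 CPM in treated, 1034 to 1074 CPM in old control and 927 to 1120 CPM in young control libraries. The part of these cells in the type IV result was not tested. Reads in overlaps cannot be assigned to 1 gene: Gm15418 and Gm32709 overlap Col4a1, with 26.2% and 9.96% of its counts, and Gm46030 and LOC118567541 overlap Col4a2, with 7.46% and 12.6%. In treated against old control RPE, Gm15418 (0.51, adjusted p = 0.0315) and LOC118567541 (0.82, adjusted p = 0.0194) also passed as higher. Against young control RPE, Gm15418 (adjusted p = 0.0158), LOC118567541 (0.00574) and Gm46030 (0.0246) passed as higher. Gm32709 passed in neither comparison (adjusted p = 0.128 and 0.0684).

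The other type IV chains did not follow this pair. Col4a3 and Col4a4, which with a type IV chain of the X chromosome form the network of mature glomerular and some ocular basement membranes, start 71 bases apart on opposite strands of chromosome 1. Col4a3 had 441, 172 and 360 CPM in treated, 340, 350 and 329 CPM in old control and 376, 320 and 404 CPM in young control libraries. Col4a4 had 327, 159 and 341 CPM in treated, 302, 302 and 291 CPM in old control and 328, 288 and 355 CPM in young control libraries. Treated library 2 was the lowest of the 9 for both, while it was the highest for Col4a1 and Col4a2. Neither was called, with log2 fold changes in treated minus old control of -0.07 ± 0.28 for Col4a3 (adjusted p = 0.906) and -0.11 ± 0.24 for Col4a4 (adjusted p = 0.801). Their ratio of 1.08 to 1.38 in treated and 1.15 to 1.19 in old control libraries overlapped as well. Col4a5 and Col4a6, on chromosome X with 1275 bases between their starts, were not called by edgeR either, while DESeq2 called Col4a5 lower in treated against young control RPE. Col4a5 had 38.9, 29.1 and 48.1 CPM in treated, 56.9, 47.9 and 61.0 CPM in old control and 84.2, 50.6 and 47.0 CPM in young control libraries, and its treated minus young control value was -0.64 ± 0.24 (adjusted p = 0.0958).

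Types XV and XVIII are multiplexins, basement membrane collagens that carry heparan or chondroitin sulfate chains and release endostatin-like fragments. Col15a1 had 24.5, 25.7 and 30.0 CPM in treated, 33.8, 29.1 and 37.3 CPM in old control and 31.8, 59.9 and 61.4 CPM in young control libraries. The treated libraries lay under all young controls and overlapped the old ones, and young control library 1 lay with the old libraries. Col15a1 fell by 0.93 ± 0.22 on the log2 scale in treated against young control RPE (adjusted p = 0.0231), with -0.61 ± 0.22 in old minus young control (adjusted p = 0.293) and -0.32 ± 0.22 in treated minus old control (adjusted p = 0.395). The call was lost without treated library 1 (adjusted p = 0.0592) or 2 (0.0705) and without young control library 2 (0.0762) or 3 (0.0646). Without young control library 1 Col15a1 was also called in old against young control RPE, at -0.86 (adjusted p = 0.0232). Limma-voom (-0.76, adjusted p = 0.00803) and edgeR without both libraries that stand apart (-0.86, adjusted p = 0.0117) called it lower there too. Gm12426, Gm32317, Gm52732, Gm52733 and Gm52734 overlap Col15a1, the last with 20.9% of its counts. In treated against young control RPE, Gm12426 (adjusted p = 0.00786), Gm32317 (0.0195) and Gm52732 (0.0433) also passed as lower. Gm52733 and Gm52734 did not pass. Reads in these overlaps cannot be told apart from those of Col15a1. Col18a1 had 125, 88.5 and 130 CPM in treated, 134, 141 and 152 CPM in old control and 141, 134 and 156 CPM in young control libraries. The treated libraries lay under all 6 controls, but Col18a1 did not pass the test in treated against old control (-0.31 ± 0.14, adjusted p = 0.186) or young control RPE (-0.33 ± 0.14, adjusted p = 0.115). Of the 8 basement membrane collagens, 2 rose and 0 fell in treated against old control RPE. In treated against young control RPE, where age differs as well, 2 rose and 1 fell. Their median log2 fold changes were -0.21 in treated minus old control and -0.28 in treated minus young control, so the rise of the Col4a1 and Col4a2 pair went against the middle of its class.

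**Figure D3:**
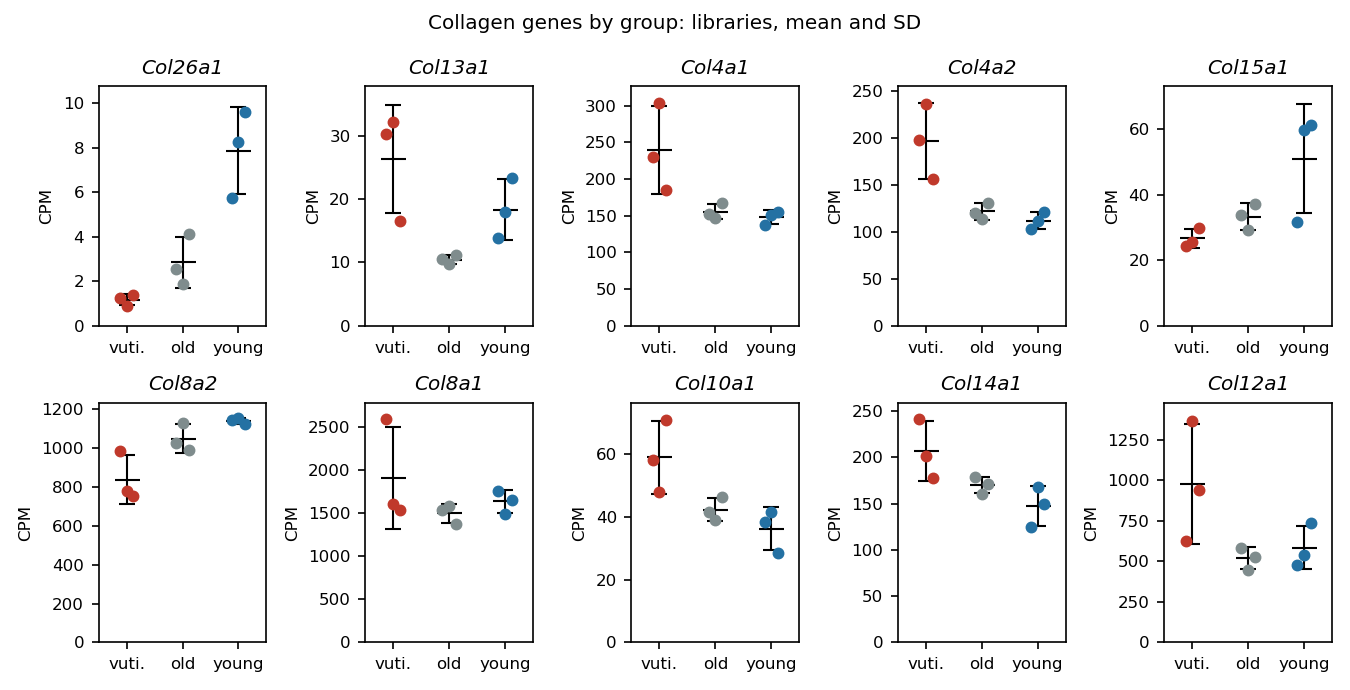
CPM of 10 collagen genes in treated (vuti.), old control and young control libraries (columns, 3 points each, with mean and SD as bars); the vertical axes start at 0. Col4a1 and Col4a2 stood above both control groups in all 3 treated libraries, and Col26a1 was lowest in treated and highest in young control libraries.

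Col26a1, a little-studied collagen with an EMI domain first described in testis and ovary, was called in all 3 comparisons. It lies on chromosome 5 from 136770613 to 136912230 of the deposited coordinates, on the minus strand. It had 1.23, 0.901 and 1.39 CPM in treated libraries (53, 42 and 75 counts), 2.56, 1.89 and 4.13 CPM in old control libraries (145, 97 and 207 counts) and 5.74, 8.29 and 9.61 CPM in young control libraries (253, 377 and 539 counts). The 3 groups did not overlap: every treated library lay under every old control library, and every old control library under every young one. Col26a1 fell in each comparison, with a log2 fold change of -1.28 ± 0.31 in treated minus old control (adjusted p = 0.0487), -2.74 ± 0.32 in treated minus young control (adjusted p = 0.00178) and -1.46 ± 0.30 in old minus young control (adjusted p = 0.0383). The call against young control RPE in treated libraries held in all 9 fits that left out a library and in all 10 other alternatives. The treated against old control call was lost without treated library 1 (adjusted p = 0.0865) or 2 (0.121), without old control library 1 (0.148), 2 (0.108) or 3 (0.158) and without young control library 2 (0.0804) or 3 (0.0659). Old against young control was lost without old control library 1 (adjusted p = 0.202) or 2 (0.147) and without young control library 1 (0.0531), 2 (0.115) or 3 (0.174). Per length it ranked 36 of 43, at 0.0081 ± 0.0018 FPKM in treated, 0.0207 ± 0.0084 FPKM in old control and 0.0555 ± 0.0136 FPKM in young control libraries (SD, n = 3 each). Gm20485 and Gm30654 overlap it, with 4.47% and 5.98% of its counts over the 9 libraries. Gm20485, at 0 to 24 counts per library, passed as lower in old (adjusted p = 0.0481) and treated (0.0132) against young control RPE. Gm30654, at 2 to 32 counts, passed as lower in treated against young control RPE (adjusted p = 0.0360). Neither passed in treated minus old control, at -0.25 (adjusted p = 0.890) and 0.43 (0.670). Reads in these overlaps cannot be told apart from those of Col26a1.

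Melanocyte markers ran in the same order as Col26a1, with sums of 2356 to 2858 CPM in treated, 3025 to 3220 CPM in old control and 3987 to 4559 CPM in young control libraries, as did the 7 RPE markers in part. Of the melanocyte markers 2 of 7 were called lower in old against young control and 6 of 7 in treated against young control RPE, and of the RPE markers 1 and 4 of 7 were lower in those comparisons, with Pmel in both lists. The RPE chloride channel Best1 went the other way and was called higher against young control RPE, at 10.3 ± 2.58 CPM in treated and 5.85 ± 0.763 CPM in young control libraries (SD, n = 3 each). The part of these cells in the Col26a1 result was not tested.

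Among transmembrane collagens, Col13a1 encodes a collagen of cell adhesion sites that also acts at the neuromuscular junction. Its deposited position is chromosome 10 from 61674013 to 61814985 on the minus strand, and its promoter window is shown above. It had 30.3, 32.2 and 16.6 CPM in treated libraries, against 10.5, 9.73 and 11.1 CPM in old control and 13.8, 17.9 and 23.4 CPM in young control libraries. Every old control library lay under all others, and treated and young control libraries overlapped. Col13a1 rose by 1.33 ± 0.25 in treated against old control RPE (adjusted p = 0.0279), while old minus young control was -0.81 ± 0.25 (adjusted p = 0.199) and treated minus young control was 0.52 ± 0.25 (adjusted p = 0.174). The call was lost without treated library 1 (adjusted p = 0.0580) or 2 (0.0645), old control library 1 (0.133), 2 (0.144) or 3 (0.104) and young control library 2 (0.0557), and without both libraries that stand apart (0.0544). It was also lost with only the 2 groups compared and with the replicate number as a block. Without treated library 3 Col13a1 was also called lower in old against young control RPE (adjusted p = 0.0413). DESeq2 (adjusted p = 0.0405), limma-voom (0.00789) and edgeR with only the 2 groups compared (0.0333) called it lower there too. Gm40674, which overlaps it, held 16.7% of its counts.

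Col17a1, the hemidesmosomal collagen of stratified epithelia, had 3.91, 20.4 and 5.73 CPM in treated, 1.75, 1.79 and 3.31 CPM in old control and 3.02, 2.46 and 2.25 CPM in young control libraries. The treated libraries lay above all controls without a call in the edgeR fit of 9 libraries with TMM scaling, at 2.14 ± 0.59 in treated minus old control (adjusted p = 0.0715) and 1.96 ± 0.58 in treated minus young control (adjusted p = 0.0509). DESeq2 called it higher in both comparisons, as did edgeR without treated library 1 or 3. Limma-voom called it higher against old control RPE. Against young control RPE edgeR called it with upper quartile scaling, with the filter of 1 CPM in 3 libraries and among non-overlapping genes. The 8 markers of stratified epithelium summed to 8.93, 336 and 62.1 CPM in treated, 3.30, 4.15 and 28.9 CPM in old control and 2.53 to 4.27 CPM in young control libraries, with treated library 2 highest for both, and their part in the Col17a1 level was not tested. Col7a1, the anchoring fibril collagen of such epithelia, had 1.35, 2.23 and 2.03 CPM in treated, 1.22, 1.11 and 1.88 CPM in old control and 0.431, 1.06 and 1.16 CPM in young control libraries, and was not called by edgeR (treated minus young control 1.08 ± 0.37, adjusted p = 0.0706), though DESeq2 and the fit with the replicate number as a block called it higher there. Col23a1 and Col25a1 were not called in any comparison, with adjusted p from 0.342 to 0.854.

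Type VIII collagen is a short-chain, network-forming collagen of Descemet's membrane and of vessel walls, and its chains Col8a2 and Col8a1 had the highest FPKM over the gene span. Col8a2 had 983, 776 and 751 CPM in treated libraries, against 1026, 1129 and 988 CPM in old control and 1143, 1153 and 1122 CPM in young control libraries. The treated libraries lay under all 6 controls, with treated library 1 close to the lowest old control. Col8a2 fell by 0.44 ± 0.11 in treated against young control RPE (adjusted p = 0.0284), and treated minus old control was -0.32 ± 0.11 (adjusted p = 0.121). The call was lost without treated library 2 (adjusted p = 0.0732), old control library 1 (0.0639) or 2 (0.0538) and young control library 1 (0.0746), 2 (0.0943) or 3 (0.0577), and without both libraries that stand apart (0.108). It was also lost with only the 2 groups compared. Without treated library 1, edgeR called Col8a2 lower in treated against old control RPE as well. Col8a1 had 2596, 1607 and 1540 CPM in treated, 1534, 1587 and 1379 CPM in old control and 1764, 1496 and 1653 CPM in young control libraries. Only treated library 1 stood off, and Col8a1 was not called (treated minus old control 0.35 ± 0.18, adjusted p = 0.259). The ratio of Col8a1 to Col8a2 per length was 0.557, 0.437 and 0.432 in treated libraries, above 0.315, 0.297 and 0.294 in old control and 0.326, 0.274 and 0.311 in young control libraries. The difference in the mean log2 ratio was 0.64 in treated minus old control and 0.64 in treated minus young control, each with an exact two-sided permutation p of 0.1, the smallest possible here, and -0.0035 in old minus young control (exact permutation p = 1). Leaving out 1 library at a time, it stayed between 0.53 and 0.71 against old control and between 0.52 and 0.70 against young control libraries. No gene overlaps Col8a2 in the deposited coordinates. Ratios within the other pairs tested, Col1a1 to Col1a2, Col6a1 to Col6a2 and Col4a3 to Col4a4, overlapped between treated and both control groups. The ratio of Col6a1 to Col6a2 was 2.87, 2.79 and 2.97 in old control libraries, under 3.21, 3.12 and 3.00 in young control libraries (difference in mean log2 ratio -0.11, exact permutation p = 0.1).

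Col10a1, the short-chain collagen of hypertrophic cartilage, had 58.0, 47.7 and 70.7 CPM in treated, 41.5, 39.1 and 46.1 CPM in old control and 38.4, 41.5 and 28.4 CPM in young control libraries. The treated libraries lay above all controls. Col10a1 rose by 0.71 ± 0.17 in treated against young control RPE (adjusted p = 0.0206), with 0.48 ± 0.16 in treated minus old control (adjusted p = 0.114), and the call was lost without young control library 1 (adjusted p = 0.0560) or 3 (0.0528). The gene lies inside Nt5dc1 on the opposite strand, whose counts were 332% of its own and whose treated minus young control value was 0.24 ± 0.11 (adjusted p = 0.148), so their reads cannot be told apart. The cartilage and sclera markers other than collagens summed to 93.7 to 174 CPM in treated, 74.2 to 98.6 CPM in old control and 66.1 to 135 CPM in young control libraries, and their part was not tested.

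Fibril-associated collagens sit on the surface of fibrils and do not form fibrils themselves. Col14a1 had 242, 201 and 178 CPM in treated, 178, 161 and 171 CPM in old control and 125, 168 and 149 CPM in young control libraries. Treated libraries lay above the young controls and overlapped the old controls. Col14a1 rose by 0.49 ± 0.13 in treated against young control RPE (adjusted p = 0.0326), with 0.28 ± 0.13 in treated minus old control (adjusted p = 0.214) and 0.21 ± 0.13 in old minus young control (adjusted p = 0.637). The call held only without treated library 3 or young control library 2; adjusted p was 0.0753 and 0.0510 without treated libraries 1 and 2, 0.0571, 0.0546 and 0.0579 without old control libraries 1, 2 and 3, and 0.106 and 0.0720 without young control libraries 1 and 3. Without both libraries that stand apart it was 0.111. Col12a1, a large collagen of dense connective tissue, had 627, 1365 and 941 CPM in treated, 581, 449 and 528 CPM in old control and 479, 538 and 733 CPM in young control libraries. Each treated library exceeded each old control library, with treated library 2 far above, but Col12a1 was not called (0.91 ± 0.26, adjusted p = 0.0770), although DESeq2, and edgeR without treated library 1, called it in both treated comparisons. Col9a3, a cartilage and vitreous collagen chain, had 145, 80.6 and 139 CPM in treated, 140, 163 and 142 CPM in old control and 148, 163 and 169 CPM in young control libraries, and was not called either (treated minus young control -0.40 ± 0.19, adjusted p = 0.166). Col20a1 had 18.3, 24.6 and 18.4 CPM in treated, above 14.5, 13.0 and 16.4 CPM in old control and 12.3, 15.3 and 16.2 CPM in young control libraries, with adjusted p of 0.0940 and 0.0542 in the treated comparisons with old and young controls. DESeq2 called it higher in both, as did edgeR without treated library 3, and edgeR called it against young control RPE with the filter of 1 CPM in 3 libraries and among non-overlapping genes.

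Type VI collagen forms beaded filaments from chains encoded by Col6a1, Col6a2 and a further chain, mostly Col6a3. None of the 5 tested chains was called in any comparison in the edgeR fit of 9 libraries with TMM scaling. Col6a2 was called higher in treated against young control RPE by DESeq2, by limma-voom, and in edgeR with relative log expression or upper quartile scaling, with the filter of 1 CPM in 3 libraries, among non-overlapping genes and without treated library 3. Col6a3 was called higher there without young control library 3. Col6a2 had 35.0, 39.9 and 35.8 CPM in treated, 34.2, 33.5 and 33.8 CPM in old control and 31.2, 27.0 and 31.8 CPM in young control libraries, a small gap in which treated libraries lay above all controls (treated minus young control 0.30 ± 0.09, adjusted p = 0.0510). Col6a3 had 248, 277 and 237 CPM in treated, 198, 149 and 212 CPM in old control and 151, 157 and 242 CPM in young control libraries (treated minus old control 0.45 ± 0.19, adjusted p = 0.177). Col6a1 had 51.4, 75.1 and 56.1 CPM in treated, 60.7, 57.9 and 62.1 CPM in old control and 62.2, 52.1 and 58.9 CPM in young control libraries. Col6a1 overlapped between all groups.

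None of the 11 fibrillar collagens, which build the tensile fibrils of connective tissue, was called in any comparison in the edgeR fit of 9 libraries with TMM scaling. At an unadjusted p under 0.05 there were 2 in treated against old control, 0 in treated against young control and 3 in old against young control RPE. Of all 25273 genes tested, 6246, 8644 and 2945 reached it in these comparisons. DESeq2 called 1 of the 11 (Col5a2) in treated against old control RPE and none in the other comparisons. Limma-voom called Col5a2 in treated against old control, and Col5a1, Col5a2 and Col5a3 in old against young control RPE. In edgeR, Col5a2 was called in treated against old control with upper quartile scaling (adjusted p = 0.0497) and with the filter of 1 CPM in 3 libraries (adjusted p = 0.0392), and in old against young control RPE with only the 2 groups compared (adjusted p = 0.0355). Col1a2 had 236, 332 and 287 CPM in treated, 285, 240 and 279 CPM in old control and 241, 284 and 410 CPM in young control libraries. Col1a1 had 60.9, 58.8 and 73.1 CPM in treated, 70.0, 48.7 and 66.6 CPM in old control and 42.3, 53.0 and 96.7 CPM in young control libraries. Young control library 3 was the highest of the 9 for both type I chains. Col3a1, of the reticular type III collagen, had 201, 213 and 147 CPM in treated, 189, 185 and 176 CPM in old control and 211, 198 and 151 CPM in young control libraries. For these 3 genes the log2 fold changes lay between -0.22 and 0.09, with adjusted p from 0.665 to 0.996.

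Type V chains help to start type I fibrils and set their width. Col5a2 had 145, 157 and 127 CPM in treated, 119, 113 and 112 CPM in old control and 135, 137 and 135 CPM in young control libraries. The old controls lay under all other libraries, with adjusted p of 0.0657 for treated minus old control (0.32 ± 0.09) and 0.283 for old minus young control (-0.24 ± 0.09). Col5a1 had 65.1, 87.3 and 85.8 CPM in treated, 93.1, 82.1 and 96.1 CPM in old control and 67.4, 70.2 and 80.2 CPM in young control libraries, and Col5a3 had 4.88, 4.57 and 7.64 CPM in treated, 7.34, 7.13 and 8.72 CPM in old control and 5.93, 5.34 and 5.71 CPM in young control libraries. For both, every old control library exceeded every young one, opposite to Col5a2, with old minus young control values of 0.32 ± 0.12 for Col5a1 (adjusted p = 0.337) and 0.45 ± 0.19 for Col5a3 (adjusted p = 0.402). Without treated library 3, Col5a2 was called higher (0.40, adjusted p = 0.00544) and Col5a3 lower (-0.70, adjusted p = 0.0108) in treated against old control RPE. Col11a1, a minor chain of cartilage and vitreous fibrils, had 71.9, 101 and 134 CPM in treated, 128, 112 and 105 CPM in old control and 137, 118 and 122 CPM in young control libraries (treated minus young control -0.30 ± 0.19, adjusted p = 0.297). Col24a1 had 9.74, 28.9 and 19.8 CPM in treated, 30.7, 23.6 and 28.8 CPM in old control and 32.5, 25.8 and 41.9 CPM in young control libraries (treated minus young control -0.78 ± 0.34, adjusted p = 0.147). Their groups overlapped.

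**Figure D4:**
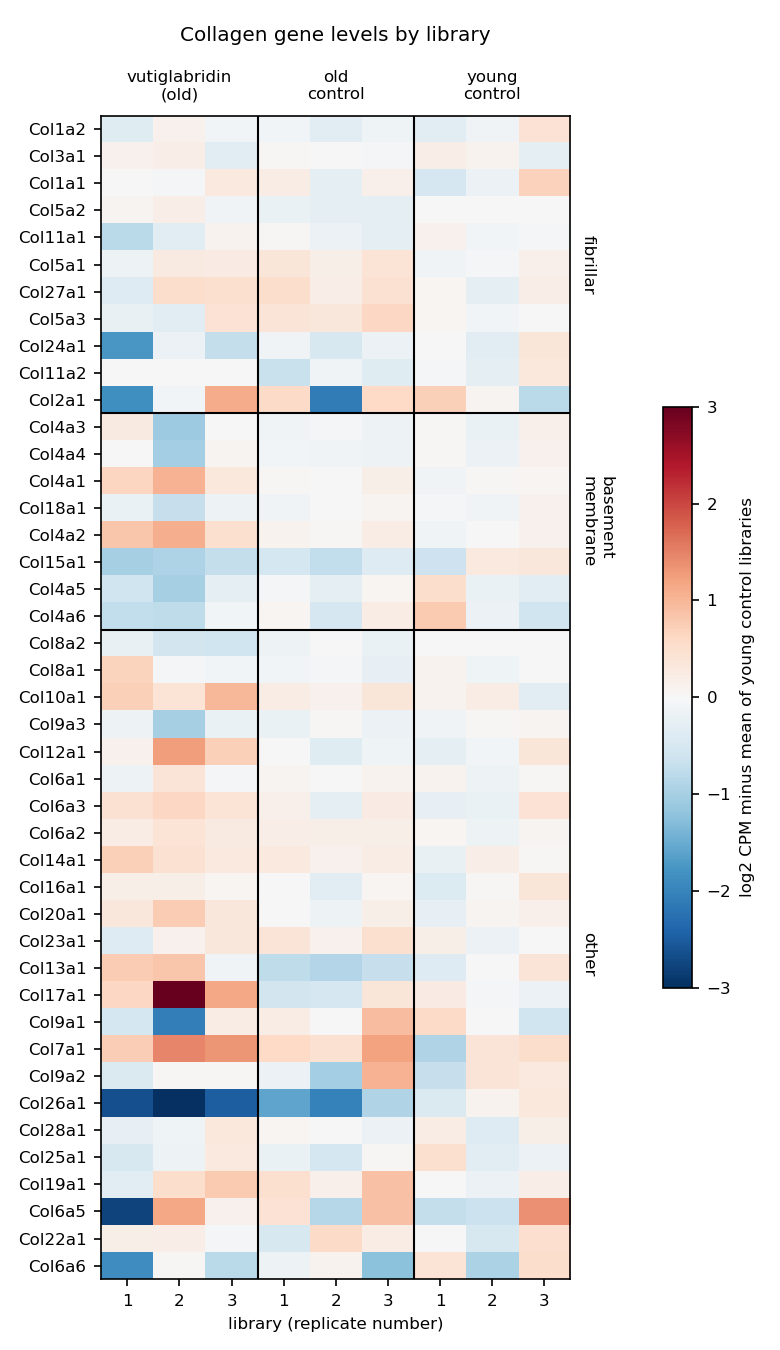
Log2 CPM of the 43 collagen genes (rows) in each of 9 libraries (columns), minus the mean of the 3 young control libraries; red is higher and blue lower, and the colours end at -3 and 3. Col26a1 was blue in all 6 libraries of 24 months and darkest in the treated ones, and treated library 2 had low Col4a3 and Col4a4 beside high Col4a1, Col4a2 and Col17a1.

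Genes that make, crosslink, degrade or bind collagen were counted from 3 lists. Of 30 genes for biosynthesis and crosslinking, 4 rose and 0 fell in treated against old control RPE (median log2 fold change 0.07), 8 rose and 1 fell against young control RPE (median 0.05), and 1 rose and 0 fell in old against young control RPE (median -0.07). Over all genes the shares called were 4.34% in treated against old control, 16.7% in treated against young control and 1.68% in old against young control RPE, beside 13.3%, 30% and 3.33% of this list. Of 12 turnover genes, 0 were called in treated against old control (median 0.05), 4 rose in treated against young control (median 0.31) and 1 rose in old against young control RPE (median 0.22). Of 9 receptors, 0 were called in treated against old control (median 0.24), 2 rose in treated against young control (median 0.22) and 0 were called in old against young control RPE (median 0.04). The counts of 0 by edgeR's quasi-likelihood test stood beside 1 turnover gene and 5 receptors at an unadjusted p under 0.05 in treated against old control, and 1 receptor in old against young control RPE. Of all 25273 genes tested, 6246 and 2945 reached it in these comparisons. In treated against old control RPE, DESeq2 called 8 genes over the 3 lists and limma-voom 8. In old against young control RPE DESeq2 called 5 and limma-voom 10.

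Lox, the lysyl oxidase that starts collagen crosslinks, had 111, 162 and 96.3 CPM in treated, 53.3, 48.5 and 46.3 CPM in old control and 33.6, 30.7 and 18.3 CPM in young control libraries. The 3 groups did not overlap. Lox rose by 1.32 ± 0.24 in treated against old control RPE (adjusted p = 0.0274) and by 2.16 ± 0.25 against young control RPE (adjusted p = 0.00222), with old minus young control at 0.84 ± 0.24 (adjusted p = 0.161). DESeq2 (adjusted p = 0.0152) and limma-voom (adjusted p = 0.00710) called Lox higher in old against young control RPE. P4ha3, a catalytic subunit of prolyl 4-hydroxylase, had 1.88, 2.81 and 2.09 CPM in treated, 1.08, 0.643 and 0.638 CPM in old control and 0.704, 0.704 and 0.874 CPM in young control libraries, and rose by 1.52 ± 0.28 in treated against old control RPE (adjusted p = 0.0236). P4ha2, another such subunit, had 14.9, 13.7 and 15.3 CPM in treated, 9.22, 9.57 and 9.52 CPM in old control and 10.2, 8.38 and 8.24 CPM in young control libraries, and rose by 0.63 ± 0.12 (adjusted p = 0.0236). Adamts3, a procollagen N-propeptidase that also activates VEGF-C, had 14.9, 15.5 and 17.9 CPM in treated, 8.43, 8.75 and 10.3 CPM in old control and 10.1, 7.85 and 9.45 CPM in young control libraries, and rose by 0.82 ± 0.13 (adjusted p = 0.0191). For all 4 genes each treated library exceeded all 6 controls, and their calls against young control RPE held in all 9 fits that left out a library. P4ha1, the main subunit of that enzyme, and the collagen chaperone Serpinh1 were not called by edgeR in any comparison. P4ha1 had 76.8, 76.9 and 76.9 CPM in treated, 77.6, 82.7 and 79.5 CPM in old control and 94.0, 89.3 and 86.6 CPM in young control libraries. Against old control the 4 calls were lost without old control library 1, 2 or 3, with adjusted p of 0.121, 0.134 and 0.109 for Lox, 0.0614, 0.132 and 0.104 for P4ha3, 0.131, 0.122 and 0.0998 for P4ha2, and 0.112, 0.111 and 0.0574 for Adamts3.

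**Figure D5:**
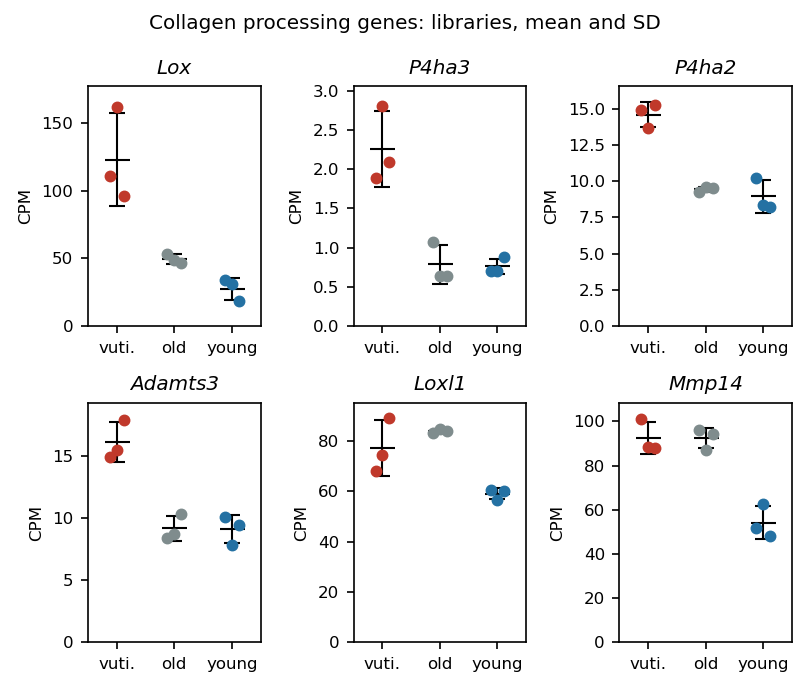
CPM of 6 genes for collagen hydroxylation, trimming, crosslinking and degradation in treated (vuti.), old control and young control libraries (columns, 3 points each, with mean and SD as bars). Lox, P4ha3, P4ha2 and Adamts3 were above all controls in the 3 treated libraries, while Loxl1 and Mmp14 were higher in old than in young control libraries.

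With age, 2 genes of the lists were called in old against young control RPE. Mmp14, a membrane-bound collagenase, had 96.0, 87.3 and 94.4 CPM in old control and 52.0, 62.4 and 48.4 CPM in young control libraries, and rose by 0.77 ± 0.11 (adjusted p = 0.00835). It had 101, 88.6 and 88.0 CPM in treated libraries, near the old controls. Loxl1, a lysyl oxidase relative tied to elastic fibres, had 83.1, 84.5 and 83.9 CPM in old control and 60.5, 56.5 and 60.2 CPM in young control libraries, and rose by 0.51 ± 0.10 (adjusted p = 0.0337). The Mmp14 call was lost without old control library 1 (adjusted p = 0.0536). The Loxl1 call was lost without old control library 1 (adjusted p = 0.134), 2 (0.122) or 3 (0.143), without young control library 1 (0.0895), 2 (0.121) or 3 (0.121), and without both libraries that stand apart (0.0519). Treated libraries had 67.8, 74.4 and 89.2 CPM of Loxl1. Of the turnover genes that rose in treated against young control RPE, Timp1, an inhibitor of metalloproteinases, had 16.1, 18.4 and 9.69 CPM in treated and 5.68, 3.74 and 2.51 CPM in young control libraries (1.89 ± 0.30, adjusted p = 0.00569), and the collagenase Mmp13 had 11.4, 1.95 and 3.46 CPM in treated and 0.976, 0.616 and 0.767 CPM in young control libraries (2.83 ± 0.61, adjusted p = 0.0175). Mmp13 had 4.29, 2.89 and 4.39 CPM in old control libraries, each above every young control library. Treated library 2 lay under the old controls, library 3 among them and only library 1 above. DESeq2 called Mmp13 higher in old against young control RPE (2.29, adjusted p = 0.0175), as did limma-voom (adjusted p = 0.0259). Timp1 averaged 7.07 CPM in old control libraries, each of which lay under every treated library. The edgeR fit of 9 libraries did not call Timp1 in treated against old control RPE. DESeq2 (1.08, adjusted p = 0.0044) and limma-voom (1.06, adjusted p = 0.0105) called it higher there. So did edgeR in 2 of the 9 fits that left out a library, with adjusted p up to 0.209 over the 9. Mmp14 and Timp2 were the other turnover genes called in treated against young control RPE, and Ddr1, a collagen-binding receptor kinase, and the integrin chain Itga1 were the receptors. Of the biosynthesis genes, Adamts14 (1.23 ± 0.27), Tmem38b (0.59 ± 0.12), Loxl1 (0.39 ± 0.10) and the prolyl 3-hydroxylase P3h2 (0.38 ± 0.11) rose there beside Lox, P4ha3, P4ha2 and Adamts3. Of the 9 fits that left out a library, the calls against young control RPE held in 9 for Timp1 and Tmem38b, 8 for Adamts14, 6 for Mmp13, 4 for Loxl1 and Timp2, 3 for P3h2, 2 for Ddr1 and 1 for Itga1. Colgalt2, a collagen galactosyltransferase, was the gene of the lists that fell there, at 16.2, 15.6 and 21.5 CPM in treated and 24.0, 24.9 and 22.2 CPM in young control libraries (-0.41 ± 0.12, adjusted p = 0.0465); its call held in 1 of the 9 fits that left out a library, with adjusted p up to 0.138. Lair1, an inhibitory collagen receptor of immune cells, had 19.4, 27.7 and 42.2 CPM in treated, 58.7, 51.9 and 46.5 CPM in old control and 32.1, 32.8 and 23.3 CPM in young control libraries. The old controls lay above all others. Lair1 did not pass edgeR's test in treated minus old control (-0.81 ± 0.25, adjusted p = 0.0923) or old minus young control (0.83 ± 0.25, adjusted p = 0.190), comparisons that share the old controls. DESeq2 and limma-voom called it in both, as did edgeR without treated library 3, and edgeR with only the 2 groups compared called it in old against young control RPE. Macrophage markers summed to 343 to 493 CPM in treated, 409 to 451 CPM in old control and 294 to 338 CPM in young control libraries. Of these 6 markers, 3 were called higher and 0 lower in old against young control RPE. In treated against old control RPE 0 were called higher and 1 lower, and in treated against young control RPE 1 higher and 0 lower. The part of these cells in the Lair1 level was not tested. The neutrophil collagenase Mmp8 (treated minus old control 0.85 ± 0.39, adjusted p = 0.210) and the integrin chain Itga2 (old minus young control -0.20 ± 0.17, adjusted p = 0.743) were not called by edgeR.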

How the data were processed

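The authors made stranded total RNA libraries, per the labels' protocols. Their tools were Bowtie2 2.3.4.1 for alignment, featureCounts 1.6.0 for counting per gene and DESeq2, without a version, on build GRCm38, per the submitters' processing notes. Per the file headers, the deposited table gives a raw count, an FPKM value and the gene length and position for each of 40202 genes. The deposited FPKM equals the count per kilobase of the whole gene span and per library total, scaled as FPKM, within a relative difference of 7.9e-13. Chromosome versions in the table are those of GRCm39, while the notes name GRCm38, so coordinates are given as deposited and none was converted. The deposited other columns (gene length, position) were used as they stand, except the biotype column, which was not used. Of the 43 collagens, 21 overlap another gene, and the use of strand in counting is not given in the sources used here, so reads of overlapping genes cannot be told apart.

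Raw counts were tested here with edgeR 4.0.16 (R 4.3.3): filterByExpr left 25273 genes, size factors were trimmed means of M values (TMM), and 1 robust quasi-likelihood fit without covariates held all 9 libraries. Genes with an adjusted p under 0.05 (Benjamini-Hochberg, over all genes tested) count as called, and adjusted p-values are edgeR's where no tool is named. The script was tested on simulated data. CPM used TMM-scaled library sizes. Sums and ratios were compared with exact two-sided permutation tests. Sequences came from the RefSeq promoter table of GRCm38.p6; protein sequences were not used here.

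The members, classes, gene lists and tests were chosen with earlier results of these data known. Named were all called members, the 2 members of smallest p in each class and comparison, the most abundant of each class and known members of Bruch's membrane and vessels, and, of the other lists, all called genes and the 2 of smallest p. Other members are given for their levels, some chosen after their values were seen. Alternatives were relative log expression, upper quartile and total count scaling, no filter or 1 CPM in 3 libraries, DESeq2 1.42.0, limma-voom (limma 3.58.1), only the 2 groups compared, a replicate block, non-overlapping genes, an adjusted p under 0.1, and fits without single libraries or without both that stand apart.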

Additional observations from a re-analysis of the deposited data

How the results depend on the processing

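No fold change of a collagen in the comparisons the named-gene rule chose it for, and run under the alternatives, reversed its sign, but the counts of calls depended on the settings. With treatment against old control, 3 collagens rose and 1 fell. DESeq2 called 8 higher, limma-voom 5 higher and 0 lower, and an adjusted p under 0.1 gave 7 higher. The fit of only the 2 groups compared called 0 higher and 0 lower, as did the fit with the replicate number as a block, and upper quartile scaling called 0 lower. Without both libraries that stand apart, 1 rose and 0 fell. Genes that overlap no other gene gave 0 higher and 0 lower, since that setting leaves out Col13a1, Col4a1, Col4a2 and Col26a1. Without 1 library at a time, 0 to 6 rose and 0 to 2 fell. In treated against young control RPE, 4 rose and 3 fell, against 7 higher with a filter of 1 CPM in 3 libraries, 9 higher by DESeq2, 9 higher at an adjusted p under 0.1, 1 higher and 1 lower with only the 2 groups compared, 2 higher without both libraries that stand apart, and 1 lower among non-overlapping genes. Without 1 library at a time, 1 to 8 rose and 1 to 4 fell. In old against young control RPE, 0 rose and 1 fell. Limma-voom gave 2 higher and 4 lower, DESeq2 2 lower, only the 2 groups compared 3 lower, the fit without both libraries that stand apart 2 lower and non-overlapping genes 0 lower; without 1 library at a time 0 rose and 0 to 2 fell.

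Over all genes, 1098 were called in treated against old control, against 3010 by DESeq2, 2718 by limma-voom, 178 with only the 2 groups compared, 317 with the replicate block, 611 among non-overlapping genes and 3006 at an adjusted p under 0.1, with 25 to 4092 without 1 library. Treated against young control had 4222, against 1041 with only the 2 groups compared, 1794 without both libraries that stand apart, 2171 among non-overlapping genes and 6911 at an adjusted p under 0.1, with 1775 to 6086 without 1 library. Old against young control had 424, against 928 by DESeq2, 2031 by limma-voom, 1239 with only the 2 groups compared and 677 at an adjusted p under 0.1, with 73 to 688 without 1 library. Of the 51 genes of the 3 lists, 4 were called in treated against old control, against 8 by DESeq2, 8 by limma-voom, 2 with the replicate block and 7 at an adjusted p under 0.1 (0 to 13 without 1 library). Treated against young control had 15, against 6 with only the 2 groups compared and 7 among non-overlapping genes (7 to 21). Old against young control had 2, against 1 with upper quartile scaling, 5 by DESeq2, 10 by limma-voom, 5 with only the 2 groups compared and 1 without both libraries that stand apart (0 to 3). The cause of these differences was not tested.

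The replicate numbers were not taken as pairs: same-numbered libraries correlated at -0.0795 to 0.148 in their deviations from the group means. Depth limits the lowest genes: Col2a1 had 3 to 29 counts per library, and its log2 fold changes carried a standard error of 0.75 to 0.76.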
